A study of Mus musculus with 4 samples.

Results

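The keratins of the E14.5 mouse cochlear duct were examined in ducts that had lost Tbx2 from SOX2-positive cells. The set held Krt5, Krt7, Krt8, Krt14, Krt15, Krt17, Krt18, Krt19 and Krt20, which is 9 of the 29924 gene names on the array, and its members were found by symbol among the gene probes. They were read by 11 probes, as Krt5 and Krt8 had 2 probes each, and every probe was printed in 4 spots. Mutant embryos were Sox2(creERT2);Tbx2(fl/fl) and are called Sox2-Tbx2LOF here, and controls were Tbx2(fl/n.d.), with the second Tbx2 allele not determined. All embryos were of the NMRI strain and all dams received 4 mg of tamoxifen by mouth at E12.5, so the controls had the drug too. Each of the 4 two-colour arrays compared 1 mutant with 1 control pool of whole ducts freed of the spiral ganglion. Arrays 1 and 2 held female pools and arrays 3 and 4 male pools, and the mutant carried Cy5 on arrays 1 and 3 and Cy3 on arrays 2 and 4. The pools were collected independently of each other, so the spread between arrays includes differences between groups of embryos. CreERT2 is inserted into Sox2, so it marks the mutants together with the Tbx2 deletion, and effects of the inserted allele cannot be told apart from those of Tbx2 loss.

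Keratins build the intermediate filaments of epithelial cells. A type I (acidic) and a type II (basic) chain join as obligate partners, and different partners mark different epithelia. KRT8 (type II) and KRT18 (type I) are the first keratins of the embryo and the core of simple epithelia, where KRT7 and KRT19 are added in ducts and glands. KRT5 and KRT14 are the partners of the basal layer of stratified epithelia, where KRT15 also occurs, KRT17 is found in periderm, skin appendages and stressed epithelium, and KRT20 is known from intestine, urothelium and Merkel cells. The otic epithelium is derived from surface ectoderm, and its duct is a simple to pseudostratified layer at the stage studied.

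On mouse build mm9 the probes lay in the 2 keratin clusters. Krt5, Krt7, Krt8 and Krt18 were on chromosome 15, and Krt14, Krt15, Krt17, Krt19 and Krt20 on chromosome 11. Krt18 is the type I gene that sits in the type II cluster, with 33.5 kb between its probe and the nearer Krt8 probe. The bright Krt5 probe was at chr15:101537514-101537573 and the dim Krt5 probe 4.5 kb away at chr15:101542056-101542115, both on the minus strand. The sequences below are those that the readings of Krt5, Krt14, Krt8, Krt17, Krt7 and Krt19 rest on. They are array oligonucleotides, 5′ to 3′ along the transcript, in lower case. Capitals mark AATAAA, the usual polyadenylation signal, which places a probe near a transcript's 3′ end; of these probes the last 30 bases are given. The others are printed whole, have at least 1 reading frame without a stop codon, and hold no such signal.
Krt5, bright probe, last 30 bases: tgacttcctccagagtctgtccAATAAAat
Krt5, dim probe: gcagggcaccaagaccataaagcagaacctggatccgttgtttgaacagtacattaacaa
Krt14: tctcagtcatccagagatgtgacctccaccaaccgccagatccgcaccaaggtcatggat
Krt8, brighter probe, last 30 bases: aaAATAAAgcctcagctggctctgtcaact
Krt8, second probe: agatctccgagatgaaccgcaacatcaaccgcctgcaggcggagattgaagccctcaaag
Krt17, last 30 bases: ttctgaacactgaAATAAAtgaccatggtg
Krt7: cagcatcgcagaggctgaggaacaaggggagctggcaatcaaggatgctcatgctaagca
Krt19: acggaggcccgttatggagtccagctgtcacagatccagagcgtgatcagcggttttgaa

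The Krt14 probe spanned 606 bases of the genome with its 60 bases, so it crosses an intron and reads spliced RNA. Levels are given as log2 normalised signal of a pool, and ratios as the log2 ratio of the mutant over the control pool on the same array. A probe's brightness depends on its sequence and its place in the transcript, so levels were compared between pools and not between probes. Of the 2 Krt5 probes one was well above background in all 8 pools, whereas the other was not well above background in any pool, and no fold is given for it. Why the Krt5 probes differ was not tested.

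The members count as selected on the mutant over control log2 ratios of these arrays, since they were picked with that contrast in view. Their levels and ratios in that contrast are therefore a description, given without p-values, and the counts of members past a threshold are given only beside the share of all genes and support nothing. Of the 9 genes, 8 passed the filter on dim probes, and these 8 were above background in 4 of 4 mutant and 4 of 4 control pools, so that none of them passed through one genotype alone. Krt20 was not well above background in any pool. No keratin spot was saturated. Of the markers of cochlear duct epithelium, a list chosen with earlier results of these data known, 14 of 14 were above background. By limma's adjusted p 1 of them rose (Gata3) and 5 fell (Fgf10, Tecta, Otoa, Jag1 and Lfng), beside 2.26% higher and 2.92% lower among all genes, and Otoa was called lower (-0.76 ± 0.060, SD, n = 4); the part of these shifts in the keratin ratios was not tested. Tbx2 itself had a ratio of -0.12 ± 0.098 (SD, n = 4) with limma's adjusted p = 0.124, and where its probe lies relative to the deleted part was not determined. Esr1, whose hormone-binding domain is part of CreERT2, was above background in 4 of 4 mutant and 0 of 4 control pools. The labels do not give the Cre status of the controls, which the study's methods describe as cre-negative. The ratios of all genes correlated between arrays of the same dye direction (r from 0.616 to 0.679) and hardly between arrays of swapped dyes (r from -0.104 to 0.0708), so the dye direction has to be read beside each keratin.

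**Figure D1:**
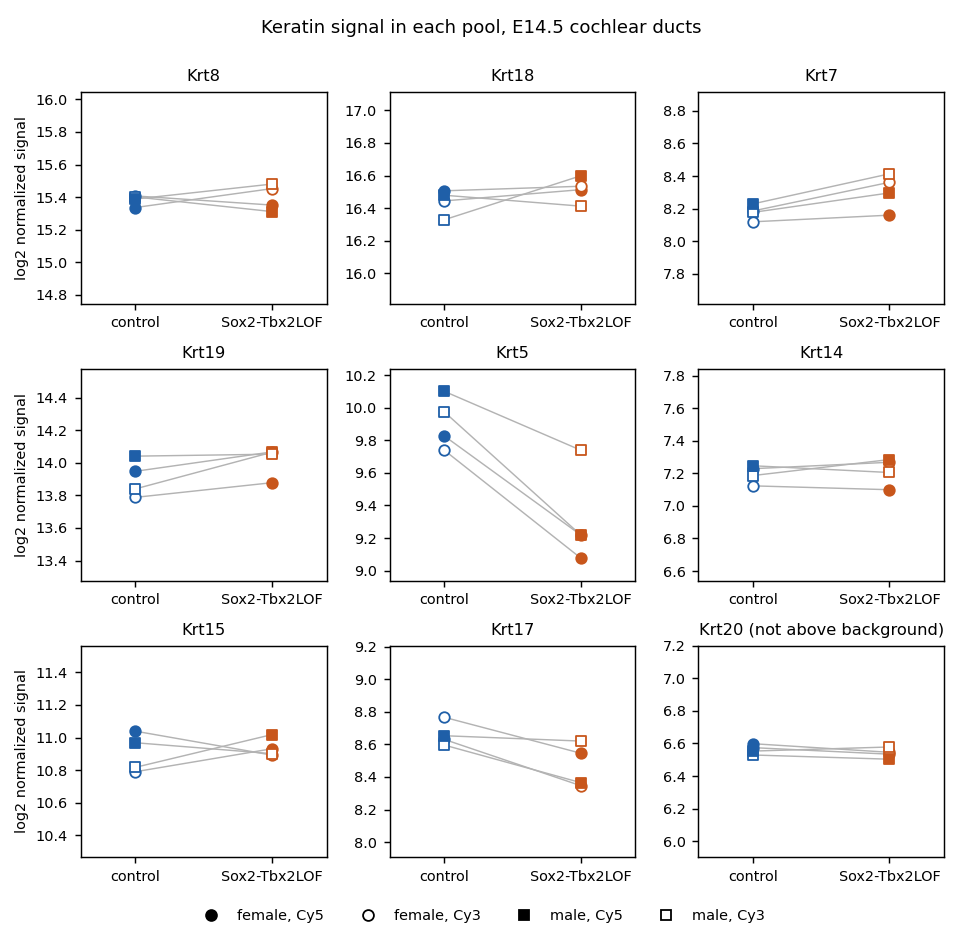
Log2 normalised signal of each keratin in the control and Sox2-Tbx2LOF pool of each array, with grey lines joining the pools of an array, circles for female and squares for male pools, filled for Cy5 and open for Cy3. Each panel has its own vertical axis of the same length, and the Krt5 lines all fall to levels of 9.08 to 9.74 while those of Krt8, Krt18, Krt14 and Krt15 run in both directions.

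Krt5 had the ratio farthest from 0 among the 8 keratins of the set above background. Its level in mutant pools was 9.08, 9.22, 9.22 and 9.74 on arrays 1 to 4. In control pools it was 9.74, 9.83, 9.98 and 10.10. The mutant pool of each array was lower than its control, and the groups did not overlap, but only just: the highest mutant pool (9.7394, male) lay right under the lowest control pool (9.7397, female). The log2 ratios were -0.66, -0.61, -0.76 and -0.36, with a mean of -0.60 ± 0.17 (SD, n = 4). This is a 1.51-fold difference, or 66.1% of the control level. All 14 Krt5 spots that carried no outlier flag were below 0, between -0.88 and -0.31.

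Both dyes and both sexes gave the same direction for Krt5. The mean ratio was -0.71 where the mutant carried Cy5 and -0.48 where it carried Cy3. It was -0.64 in female and -0.56 in male pools. The dye step matters for the single values, since the median spot was brighter in Cy5 than in Cy3 on these arrays: before normalisation array 1 read 672.5 for the mutant and 636.5 for the control, with the mutant in Cy5, array 2 read 367.2 and 1014, with the mutant in Cy3, and array 3 read 699.8 and 705.8, with the mutant in Cy5. After the dyes were scaled to each other these readings gave the ratios above.

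Krt5 was the only keratin of the set that passed the call, which asks for at least 1.5-fold and for an adjusted p below 0.05 with the adjustment made across every gene tested. Across all 21042 genes tested, 0.309% were called lower, 0.133% higher and 0.442% either way. As this contrast chose the members, nothing is read from the count or from how often it held under other processing. The adjusted p alone was passed by Krt5 only as well, against 5.18% of all genes, and groups that did not overlap with mutant below control were found for Krt5 and for 2.54% of all genes. Groups apart in the other direction were found for 0 of the 8 and for 1.73% of all genes. The ratio lies very close to the 1.5-fold limit. It was -0.54 without array 2 and -0.57 without array 3, which is under the limit, while the adjusted p was still passed. In the unpaired comparison of single channels, the form that the study's own test took, the ratio was the same and the adjusted p was not passed. Krt5 kept its call in the other 12 of 15 alternatives. Among these, single channels with the array as a block repeat the ratio fit, so that alternative could not differ.

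**Figure D2:**
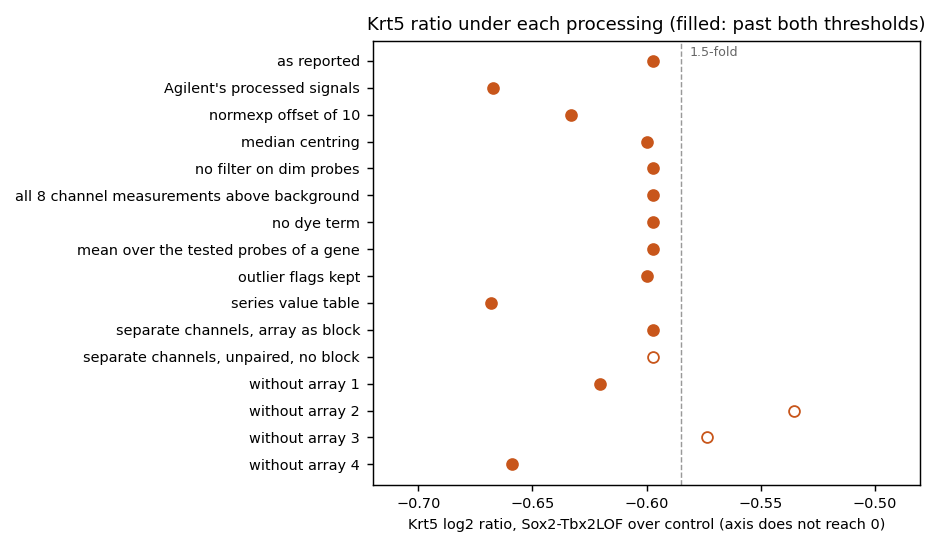
Mean log2 ratio of Krt5 (horizontal axis, not reaching 0) under the reported processing and 15 alternatives (vertical axis), filled where both thresholds were passed and open where not, with the 1.5-fold limit dashed. The values run from -0.67 to -0.54, and the open points are the fits without array 2, without array 3 and of unpaired single channels.

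Krt14, which encodes the filament partner of KRT5 in basal cells, was near the lower end of what the array could read. Its levels were 7.10, 7.27, 7.28 and 7.21 in mutant and 7.12, 7.23, 7.19 and 7.25 in control pools. The groups overlapped fully, and the ratio was 0.018 ± 0.064 (SD, n = 4), above 0 on 2 of 4 arrays. Its signal after background subtraction was 53.82 to 106.8 intensity units, where the offset of 50 added before the log pulls ratios towards 0. Other keratins were affected too. With an offset of 10 the ratio was -0.63 for Krt5, -0.22 for Krt17 and 0.15 for Krt7, beside -0.60, -0.19 and 0.13 as reported. Krt14 was at 0.021 with that offset. Krt5 therefore was lower in the mutant without a matching difference in Krt14 that these probes could resolve.

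Krt17 had the only other mean ratio below 0 among the 8 keratins of the set above background. Its levels were 8.55, 8.35, 8.37 and 8.62 in mutant and 8.77, 8.63, 8.60 and 8.65 in control pools. The ratios of -0.22, -0.28, -0.23 and -0.03 gave a mean of -0.19 ± 0.11 (SD, n = 4), with the male pools of array 4 almost equal. The mutant was lower on 4 of 4 arrays, which was also so for 9.31% of all genes, but the groups overlapped between pools of different arrays. Of 14 unflagged spots, 12 were below 0. Array 4 was the array with the smallest difference for Krt17 and for Krt5 alike.

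Krt15, a basal keratin without a fixed partner, followed the dye and not the genotype. The ratios were 0.14 and 0.20 with the mutant in Cy5 and -0.15 and -0.07 with the mutant in Cy3, with a mean of 0.032 ± 0.17 (SD, n = 4). The fitted dye term was 0.14, larger than the genotype ratio. Its levels, 10.89 to 11.02 in mutant and 10.79 to 11.04 in control pools, overlapped.

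The simple-epithelium keratins gave no such difference. Krt8 had levels of 15.31 to 15.48 in mutant and 15.34 to 15.41 in control pools. Its ratio was 0.015 ± 0.10 (SD, n = 4), below 0 in both arrays with the mutant in Cy5 and above 0 in both arrays with the mutant in Cy3. The second Krt8 probe, 1.6 kb away, had a mean ratio of 0.0027 ± 0.12 (SD, n = 4), so both probes had means near 0, but by array they differed: the second probe was at -0.15 and -0.02 in female and at 0.10 and 0.09 in male pools.

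Krt18, the partner of Krt8, had levels of 16.51, 16.53, 16.60 and 16.41 in mutant and 16.44, 16.51, 16.33 and 16.48 in control pools. The mutant was higher on 3 of 4 arrays and the ratio was 0.075 ± 0.14 (SD, n = 4). The mean ratio was 0.17 with the mutant in Cy5 and -0.02 with the mutant in Cy3. The fitted dye term, 0.095, was larger than the genotype ratio. Array 3 (0.27) and array 4 (-0.07), both male with swapped dyes, lay at the ends of the range, and the groups overlapped. The Krt18 spots within an array had an SD of 0.019, so the spread lies between arrays and not between spots.

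Krt7 and Krt19, the keratins of ducts and glands, were above 0 on 4 of 4 arrays, which was so for 8.85% of all genes. Krt7 had levels of 8.16, 8.36, 8.30 and 8.41 in mutant and 8.12, 8.19, 8.18 and 8.23 in control pools. Its ratios ranged from 0.04 to 0.18, with a mean of 0.13 ± 0.066 (SD, n = 4), or 1.09-fold. The mutant pools of arrays 2, 3 and 4 lay above every control pool but that of array 1 did not, and the groups overlapped.

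Krt19 had levels of 13.88, 14.07, 14.07 and 14.05 in mutant and 13.79, 13.95, 13.84 and 14.04 in control pools. Its mean ratio was 0.11 ± 0.088 (SD, n = 4), or 1.08-fold, between 0.01 on array 4 and 0.22 on array 3. Krt20 is not ordered with these genes, since its log2 signal of 6.50 to 6.60 was that of a probe not above background.

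**Figure D3:**
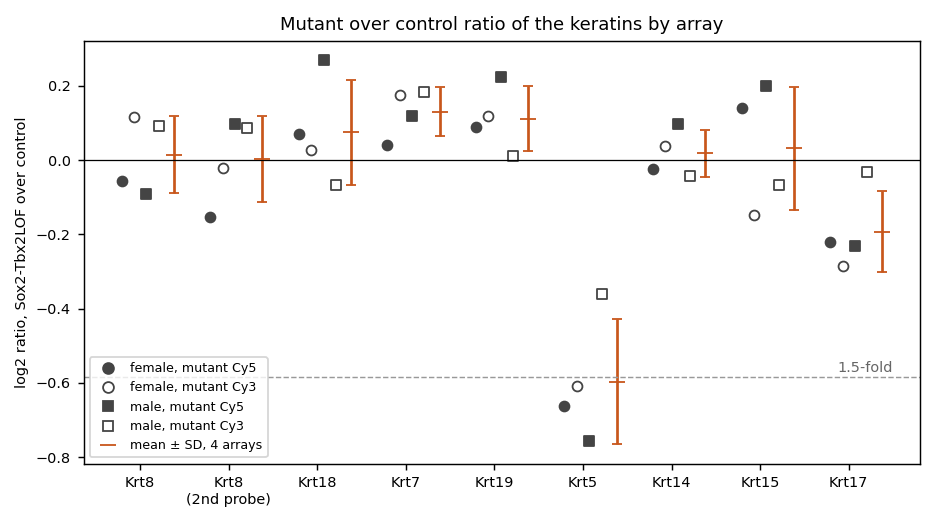
Log2 ratio of Sox2-Tbx2LOF over control (vertical axis) on each array for the 8 keratins above background and the second Krt8 probe, circles for female and squares for male pools, filled where the mutant carried Cy5, with the mean ± SD over 4 arrays in orange. Krt5 lies between -0.76 and -0.36, Krt17 below 0 and Krt7 and Krt19 above 0 on every array, and Krt15 changes sign with the dye.

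Ordered by mean ratio the 8 keratins ran from Krt5 (-0.60) and Krt17 (-0.19) over Krt8, Krt14, Krt15 and Krt18 (0.015 to 0.075) to Krt19 (0.11) and Krt7 (0.13). From Krt8 to Krt7 each step between neighbours was smaller than the SD of either gene. The steps from Krt5 to Krt17 and from Krt17 to Krt8 were larger than the SD of either neighbour. The median ratio of the 8 was 0.025, beside 0.0024 over all genes tested. In whole ducts, fewer cells of a keratin-rich type and less keratin RNA per cell cannot be told apart.

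Other contrasts did not choose the members and could be tested. The genotype ratio of the keratins was compared between sexes with an interaction term in limma, adjusted over all genes. None passed: 0 of 8 keratins and 0 of 21042 genes (0%) had an adjusted p below 0.05, and the keratins' adjusted p was 1 in each case. The difference between female and male ratio was -0.076 for Krt5 (SE 0.1) and -0.12 for Krt17 (SE 0.093). Without adjustment 558 genes had p below 0.05, and 0 of the 8 keratins did. With 2 arrays per sex such a test is coarse.

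Levels were likewise compared between 2 female and 2 male arrays, each taken as the mean of its mutant and control pool. Again 0 of 8 keratins passed limma's adjusted p (1 for each), against 8 genes or 0.038% of all, and 0 of the 8 and 649 of all genes had an unadjusted p below 0.05. Krt5 had the widest gap. Its array means were 9.41 and 9.52 in females and 9.60 and 9.92 in males. The difference was -0.29 (SE 0.12), with limma's unadjusted p = 0.0528, just over the threshold. For the other 7 the female minus male difference lay between -0.079 (Krt19) and 0.045 (Krt18). The male arrays thus read higher for Krt5 without passing the test, and the higher of them, array 4, was also the one with the smallest Krt5 ratio.

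How the keratins varied together was described over the 8 pools, after centring within each dye. Krt7 and Krt19 had r = 0.961, and Krt14 and Krt19 r = 0.823. Krt5 had r = 0.704 with Krt17 and, larger in size, r = -0.732 with Krt18. Of the partners, Krt8 and Krt18 had r = -0.0233, and Krt5 and Krt14 r = 0.0735. The 8 values include both genotypes and 2 pools from each array, so they share hybridisations and, for Krt5, the genotype difference itself. Krt8 varied little (SD 0.032 over the pools) and had r = 0.574 with Krt7 and 0.571 with Krt19. Among all other genes tested the one most like Krt5 by this measure was Igfbp3 (r = 0.996). Aldh1a3 was most like Krt17 (r = 0.977), Aprt most like Krt7 (r = 0.992), Mien1 most like Krt19 (r = 0.995), and Tpst2 most like Krt18 (r = 0.977). The others were C1qtnf4 for Krt14 (r = 0.995), Krtap1-4 for Krt15 (r = 0.991) and B930095G15Rik for Krt8 (r = 0.982). With 8 pools and 21041 candidates, a highest r of this size was found for all 8 keratins, whether or not they differed between genotypes.

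The array held 52 keratin genes, and the 43 others were taken without regard to their values. Of these, 21 were above background and 22 were not, the latter mostly keratins of the hair follicle. Krt6a and Krt1 were higher by limma's adjusted p, none was lower, and none was called at 1.5-fold, with 2.26% of all genes higher and 2.92% lower by adjusted p. Without adjustment 3 were higher and 2 lower. Krt6a, a keratin of activated and appendage epithelium, had ratios of 0.78, 0.02, 0.50 and -0.12 (mean 0.29 ± 0.42, SD, n = 4, limma adjusted p = 0.0213). Krt1, a suprabasal epidermal keratin, had ratios of 0.41, -0.04, 0.41 and -0.01 (mean 0.19 ± 0.25, SD, n = 4, limma adjusted p = 0.0206). Both were high only where the mutant carried Cy5, and their dye terms, 0.34 and 0.22, were larger than their genotype ratios. Without the dye term neither passed.

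Krt10, the partner of Krt1, had a ratio of -0.01, and Krt6b of -0.01. Among the 21 the median ratio was -0.0004. The Krt5 ratio lay outside the range of these other keratins, which went from -0.15 (Krt23) to 0.29 (Krt6a). Krt5 was chosen with its value known, so this is a description.

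**Figure D4:**
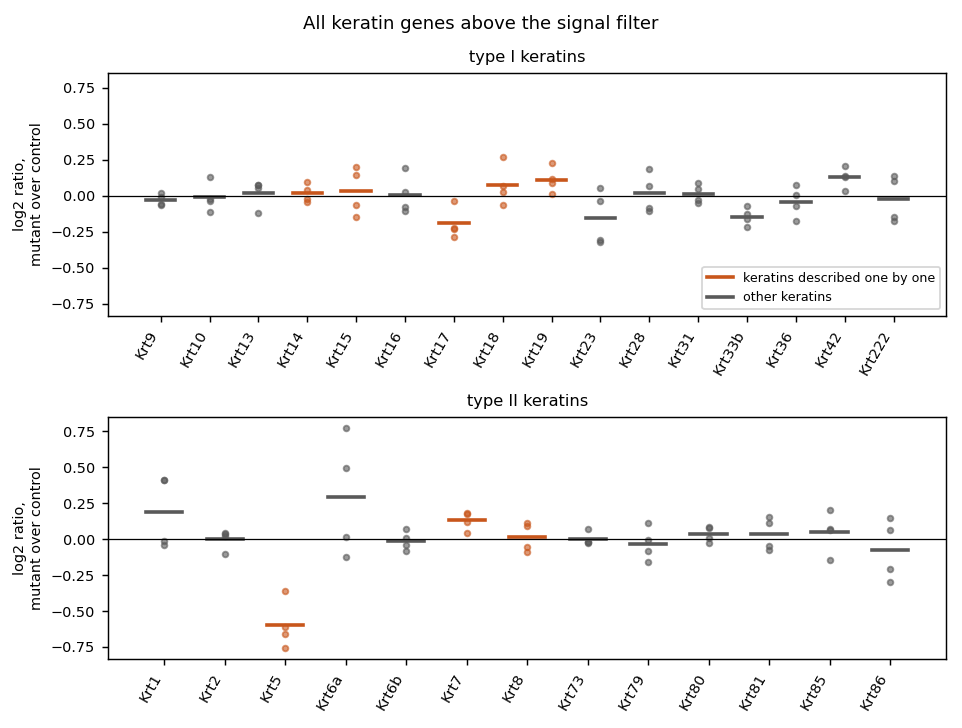
Log2 ratio of Sox2-Tbx2LOF over control (vertical axis) for each keratin gene above background, type I in the upper and type II in the lower panel, with points for the 4 arrays and bars for their mean, in orange for the 8 keratins described one by one. Krt5 is the lowest of all at -0.60, and Krt6a and Krt1 have the widest spread upwards.

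Keratin filaments are anchored in desmosomes and hemidesmosomes, and transcription factors such as TRP63 and AP-2 act on basal keratin genes. The lists taken cover these genes and also the intermediate filament genes other than keratins. Of the 58 genes in the 4 lists 50 were above background, and by limma's adjusted p 2 were higher and 7 lower, beside 2.26% and 2.92% of all genes. None of the desmosome, hemidesmosome and regulator genes was called at 1.5-fold. In the list of other filaments Ina and Nefm were called lower. This is 2 of 50 over all lists, beside 0.309% of all genes called lower. The lists were chosen with earlier results of these data known. Their counts are thus a description, and no enrichment was tested. The median ratio of the 50 was 0.0014.

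Among 13 desmosome and linker genes above background, Dsc2, a desmosomal cadherin, rose (0.20 ± 0.12, SD, n = 4, limma adjusted p = 0.0277) and Dst, the linker dystonin, fell (-0.16 ± 0.049, SD, n = 4, limma adjusted p = 0.0398). Other Dst probes gave mean ratios of 0.038, 0.078 and -0.20, so the Dst probes disagreed. The remaining 11 did not pass, with Dsp, which ties keratins to the desmosome, at 0.12 ± 0.20. Dsg3 and Dsc3, the cadherins of stratified epithelium, were not above background. Of 7 hemidesmosome genes only the tetraspanin gene Cd151 passed, with a rise of 0.15 ± 0.064 (SD, n = 4, limma adjusted p = 0.0429). Itga6 and Itgb4, which form the integrin that holds basal keratins to the basement membrane, had ratios of -0.16 ± 0.18 and 0.0025 ± 0.21 and did not pass.

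Among 15 regulators above background Tfap2a (AP-2 alpha) fell on 4 of 4 arrays, with ratios between -0.34 and -0.25 and a mean of -0.29 ± 0.042 (SD, n = 4, limma adjusted p = 0.00437). Ehf, an epithelial ETS factor, fell by less (-0.20 ± 0.11, SD, n = 4, limma adjusted p = 0.0368). Its second probe gave -0.11 ± 0.048. Tfap2a and Ehf were both lower on 4 of 4 arrays, as were 9.31% of all genes, and both changed by under 1.5-fold. A link between these regulators and Krt5 was not tested. Tfap2c had a ratio of -0.19 ± 0.11 with an adjusted p of 0.0634 in limma. Trp63, a well known activator of Krt5 and Krt14 in basal cells, had ratios of 0.37, -0.30, 0.40 and -0.07 (mean 0.097, limma adjusted p = 0.279) and followed the dye. None of the regulators rose by adjusted p, and 3 had a rise at an unadjusted p below 0.05.

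Of 15 other intermediate filament genes above background 4 fell, all of them genes of neuronal filaments. These were Nefm (-0.72 ± 0.21), Ina (-0.71 ± 0.25), Nefl (-0.48 ± 0.098) and Nefh (-0.38 ± 0.26, SD, n = 4 throughout), with limma's adjusted p from 0.00031 to 0.0171. The second Ina probe gave -0.15 ± 0.087. None rose by adjusted p and 1 did without adjustment. Vim, the mesenchymal filament gene, had a ratio of 0.11 ± 0.047 with an adjusted p of 0.113 in limma, and Nes and the lamin genes lay between -0.03 and 0.04. Prph, a filament gene of peripheral neurons, had a ratio of -0.099 ± 0.17 (SD, n = 4), above 0 on array 2, and did not pass (limma adjusted p = 0.32). Among the keratins above background only Krt5 had a ratio of similar size.

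**Figure D5:**
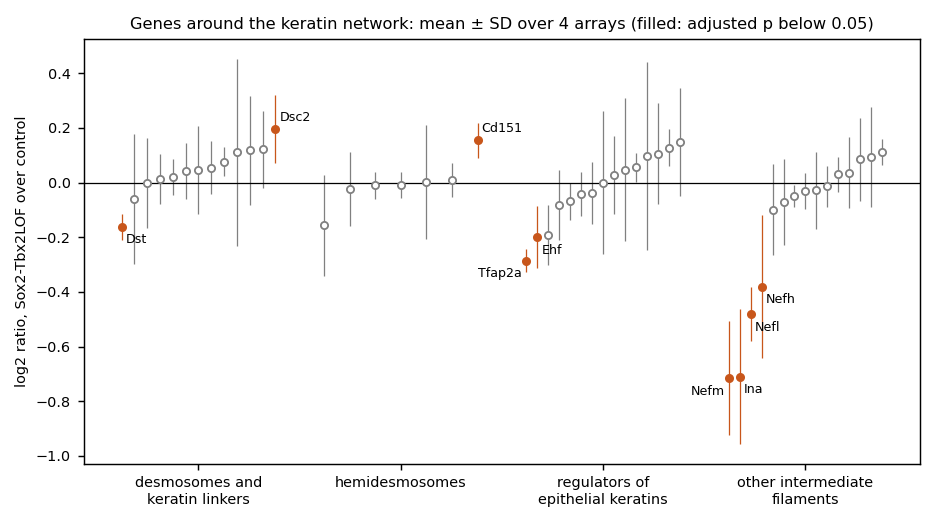
Mean log2 ratio ± SD over 4 arrays (vertical axis) of the 50 genes above background in 4 lists around the keratin network, sorted within each list and filled where limma's adjusted p was below 0.05. The largest falls are those of the neurofilament genes Nefm and Ina, and Tfap2a and Ehf are the regulators that fell.

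Markers of other cell types moved with genotype beside Krt5. These marker lists too were chosen with earlier results of these data known, so their counts are a description. Of 12 markers of stratified epidermis, 11 were on the array and 8 above background, while Krtdap, Dsg3 and Dsc3 were not. One of the 8 fell, namely Lor (loricrin, an envelope protein of cornifying cells), with -0.78 ± 0.085 (SD, n = 4, limma adjusted p = 7.94e-05), and 1 rose, namely Krt1. The summed normalised signal of the list, in which bright probes weigh most, was 25800 to 27900 in mutant and 32600 to 38300 in control pools. The sum and Krt5 were both lower in the mutant on 4 of 4 arrays, and 9.31% of all genes were below 0 on 4 of 4. Lor was the only marker of the list that fell: Sbsn, Ivl, Sfn, Dmkn, Trp63 and Krt10 had ratios between -0.04 and 0.10, and the median ratio of the 8 was -0.0038. The part of epidermis-type RNA in the Krt5 ratio was not tested.

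Of 9 neuronal markers above background 7 fell and 1 rose, and of 8 markers of Schwann cell precursors 4 fell and 1 rose, beside 2.92% of all genes lower and 2.26% higher. The median ratio was -0.41 for the 9 neuronal and -0.34 for the 8 precursor markers. Of these, 3 and 4 were called lower, beside 0.309% of all genes called lower. Their summed signals, in which bright probes weigh most, nevertheless overlapped between genotypes. For the neurons they were 37000 to 40300 in mutant and 35100 to 42400 in control pools. For the precursors they were 170000 to 197000 and 175000 to 204000. Of 10 periotic mesenchyme markers 1 rose (Col1a1) and 4 were higher at an unadjusted p below 0.05 in limma. Their sum, 208000 to 231000 in mutant and 182000 to 205000 in control pools, did not overlap, with mutant above control on each of the 4 arrays. Bright probes weigh most in this sum too. The single mesenchyme markers had ratios from -0.049 (Pou3f4) to 0.28 (Col1a2), with a median of 0.089. Of 7 endothelial markers 1 rose (Cldn5), while no melanocyte or blood marker passed limma's adjusted p (at an unadjusted p, 2 of 7 and 4 of 7). The part of these cells in the keratin ratios was not tested.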

How the data were processed

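Total RNA of cochlear duct pools was labelled with Cy3 or Cy5 and hybridised in pairs to 4 Agilent arrays of 1 slide. The authors deposited spot intensity files from Agilent Feature Extraction 10.7.3.1, and the deposited log10 ratios and processed intensities in them are dye-normalised by that program. They also deposited a value table (a score, per its values a signed fold), used as an alternative; it correlated with the ratios at r from 0.912 to 0.942, and its centring is not given in the sources used here.

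Mean intensities were background-corrected with limma 3.58.1 in R 4.3.3 (normexp, offset 50) and loess-normalised within arrays; single channels were scaled with Aquantile. Outlier-flagged spots (8.29% to 8.56% of gene spots) were dropped and the spots of a probe averaged. Probes entered the test if at least 50% of their spots were well above background in 4 of the 8 channel readings; a gene was represented by its brightest such probe. Ratios were turned to mutant over control by the dye labels, and lmFit and eBayes were run over 21042 genes with a dye term, called at Benjamini-Hochberg adjusted p below 0.05 and 1.5-fold. The study's own test was an unpaired 2-class comparison (SAM). The number of arrays, 4, limits precision; median spot intensity was 263 to 292 in Cy3 and 496 to 563 in Cy5. The fits were tested on simulated data.

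The members and gene lists were chosen with earlier results of these data known. Named genes are the members, other keratins past the adjusted p, cell type markers, and the gene most like each member. From the lists around the keratin network the 8 genes with the largest ratios past the adjusted p are named. Cd151 and genes given as not passing were named after their values were seen. Alternatives covered background, scaling, filter, dye term, probe choice, flags, the value table, pairing and leaving out each array. Figures were drawn with matplotlib 3.10.9.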

Additional observations from a re-analysis of the deposited data

Results flagged for a closer look

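The Krt19 level in the mutant pool of array 1 was 13.88 on the log2 scale, while the other 3 mutant pools lay between 14.05 and 14.07. Its gap took 0.926 of the group's range, above Dixon's limit for a group of 4. It was the 1 outlying value among 27 sets of 4 values examined, and chance gives about 1 in 20. The control pool of that array was also the lowest control pool for Krt19, at 13.79, so the ratio of array 1 (0.09) was not outlying.

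The second Krt8 probe had a mean ratio of -0.086 in female pools, where both arrays were below 0, and of 0.092 in male pools, where both were above 0. The difference between the sexes was not tested for this probe. The brighter Krt8 probe did not show it, with 0.030 in female and 0.0009 in male pools, and its tested difference had limma's adjusted p = 1.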

How the results depend on the processing

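The log2 ratio of each of the 8 keratins stayed within 1 SD of its reported value in 15 of 15 alternatives, with Krt5 from -0.67 to -0.54, Krt17 from -0.26 to -0.13, Krt7 from 0.11 to 0.19 and Krt19 from 0.075 to 0.15. Krt18 and Krt15 kept their sign but moved by over 1.5 times when an array was left out, from 0.025 to 0.13 and from 0.012 to 0.052. The signs of Krt8 and Krt14 were not stable, at -0.022 to 0.024 and -0.012 to 0.055. The ratios were the same as reported under the filter settings, without the dye term and in the single channel fits, so these do not test the limit either. The number of keratins called was 1 as reported and 0 in the unpaired fit without a replicate block, and 0 to 1 when each array was left out, with 0 without array 2 and without array 3. With the array as a replicate block it was 1, but that fit is by its design the ratio fit again and could not differ. In the lists around the keratin network 2 genes were called as reported, the neuronal filament genes Ina and Nefm. The count for these lists was 1 with the mean over probes, 1 in the unpaired fit without a block and 2 to 2 when each array was left out. Over all genes 93 were called, and 169 with Agilent's processed signals, 141 with the series value table and 88 to 103 when each array was left out. Genes with adjusted p below 0.05 numbered 1091, and between 217 (unpaired) and 1278 (without array 2) in the alternatives. Genes of the lists around the keratin network past that adjusted p numbered 9, and 1 to 9 in the alternatives. Other keratins past it numbered 2, and 0 to 3 in the alternatives, with 0 without the dye term, unpaired or without array 1. Keratins that differed by sex, in ratio or level, were 0 in 8 and 7 alternatives. The slide as a block was not run, as all arrays were on 1 slide. Krt20 and the dim Krt5 probe are limited by signal over background, and Krt14 nearly so.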
